A study of Mus musculus with 219 samples.

Results

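The transcripts described here are those of Nanog, Pou5f1, Sox2, Klf2, Klf4, Esrrb, Tdgf1, Tfcp2l1 and Zfp42, 9 of the 32285 genes counted in single blastomeres and single blastocysts of the mouse. They were chosen by symbol as a set of factors known for the epiblast and for pluripotency, and all 9 have a row in both count tables.

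The epiblast is the part of the blastocyst that founds the body of the embryo. It lies inside the trophectoderm, the outer epithelium that builds the placenta, and beside the primitive endoderm, which builds the yolk sac. Pou5f1 (OCT4) and Sox2 are transcription factors that bind DNA side by side at shared elements, and with the homeobox factor Nanog they sit at the centre of the network that keeps cells pluripotent. Klf2, Klf4, Esrrb, Tfcp2l1 and Zfp42 (REX1) belong to the naive form of that network, which mouse embryonic stem cells share with the early epiblast, and Tdgf1 (Cripto) is the co-receptor of Nodal signalling. Oocytes store transcripts of some of these genes, and a 2-cell embryo can hold stored and newly made copies at once. The counts cannot tell the 2 kinds apart.

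The study asked whether the place where the sperm enters the oocyte shapes the first cleavage and the equivalence of its products. Oocytes of B6C3F1 females were each injected with 1 sperm head from a single cryopreserved batch of CD1 sperm (intracytoplasmic sperm injection, ICSI), giving B6C3F1xCD1 embryos in every group. The head was released opposite the spindle of the second meiotic division at the vegetal pole (contralateral), beside it at the animal pole (ipsilateral), or midway between the poles (equatorial). Two-cell embryos (Theiler stage 2 by the labels) were taken apart and both sister blastomeres sequenced, giving 55 pairs after filtering, 21 contralateral, 21 ipsilateral and 13 equatorial. Other 2-cell embryos were bisected and each blastomere grown on its own to a blastocyst (Theiler stage 5), giving 19 pairs of twins, 6 contralateral, 7 ipsilateral and 6 equatorial. A further 31 blastocysts, 11 contralateral, 8 ipsilateral and 12 equatorial, came from embryos that were not bisected and are called intact. Twins thus each descend from 1 of the 2 first blastomeres, each raised alone in a well of KSOM medium with amino acids, and the sources used here do not give the way intact embryos were kept at the same stages. The embryo is the replicate throughout. The counts of both sisters or both twins were added to give 1 value per embryo. Sisters and twins were held apart where they are compared with each other and where values of single cells or single twins are described. Alternatives with 1 twin of each pair alone also held them apart.

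Libraries were full-length SMART-Seq libraries without molecular identifiers. Total counts ran from 360474 to 2100561 in the 110 blastomeres (median 1340425), from 713410 to 2161062 in the 38 single twins (median 1093478) and from 234099 to 1254428 in the 31 intact blastocysts (median 705837). A level listed as 0 therefore allows up to 3 counts by counting error alone. This is between 2.39 and 12.8 CPM (counts scaled to the total of the library) in an intact blastocyst. It is between 1.39 and 4.21 CPM in a single twin and between 1.43 and 8.32 CPM in a single blastomere. All blastocysts and 13 of the 2-cell embryos were on 1 plate, and the other 42 two-cell embryos on another plate that was read as paired ends. On the shared plate, 2-cell blastomeres, intact blastocysts and twins held separate rows with little overlap, so that row and kind of embryo can largely not be told apart. As a check of the twin labels, both twins lay on the same side of 20 CPM in the summed counts of Y-linked genes in all 19 pairs. The number of pairs on each side was not recorded, which limits this check. In a bulk library of a whole blastocyst, fewer epiblast cells and less RNA of a gene per epiblast cell cannot be told apart. Nor can RNA of a member from epiblast cells be told from RNA of that member from other cells.

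The 9 genes lie on 8 chromosomes of the mouse genome (build GRCm38). Nanog (ENSMUSG00000012396) is at chr6:122707489-122714633, Pou5f1 (ENSMUSG00000024406) at chr17:35506018-35510772, Sox2 (ENSMUSG00000074637) at chr3:34650405-34652461, Klf2 (ENSMUSG00000055148) at chr8:72319033-72321656 and Esrrb (ENSMUSG00000021255) at chr12:86361117-86521628, all on the plus strand. Tfcp2l1 (ENSMUSG00000026380) is at chr1:118627945-118685168 on the plus strand. Klf4 (ENSMUSG00000003032) at chr4:55527143-55532466, Tdgf1 (ENSMUSG00000032494) at chr9:110939603-110946158 and Zfp42 (ENSMUSG00000051176) at chr8:43295063-43306980 are on the minus strand. The annotation also holds pseudogenes named after Nanog, Tdgf1 and Zfp42, and Sox2 lies within the span of the long noncoding transcript Sox2ot. Reads that fit a member and such a neighbour or copy equally well may have been dropped, so these 4 levels carry that uncertainty.

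Of the genes, 3 carry, just before a start site given by RefSeq (GRCm38.p6), the letters TTTGCAT, the octamer-like core that POU factors such as the product of Pou5f1 bind. The stretches that hold them are shown because they put a recognition word of 1 member of the network in front of another, and the capitals mark the word of POU factors and, in Nanog, the word ACAATG of SOX factors that follows 1 base later. The Nanog stretch is chr6:122707369-122707468 on the plus strand, the Sox2 stretch chr3:34649851-34649950 on the plus strand, where the word stands on the opposite strand and reads ATGCAAA, and the Zfp42 stretch chr8:43307140-43307239 on the minus strand.
Nanog: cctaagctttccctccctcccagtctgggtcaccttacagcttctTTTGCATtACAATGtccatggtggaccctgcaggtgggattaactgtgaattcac
Sox2: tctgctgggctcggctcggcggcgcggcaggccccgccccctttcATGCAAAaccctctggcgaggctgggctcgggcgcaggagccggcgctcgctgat
Zfp42: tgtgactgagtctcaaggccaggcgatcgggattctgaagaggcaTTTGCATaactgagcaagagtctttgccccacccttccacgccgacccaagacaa
The word begins 75 bases before the start of Nanog, 99 before that of Sox2 and 185 before that of Zfp42. Both strands of the 250 bases before each annotated start were searched, and all 9 genes had at least 1 such window. TTTGCAT stood in 4 of the 12 windows of members, from 3 genes, and in 4.13% of all 32841 windows. ACAATG stood in 3 of the 12, from Nanog and Pou5f1, and in 10.7% of all. The KLF word GGGNGTGG stood in 6 of the 12, from Nanog, Pou5f1, Tdgf1, Tfcp2l1 and Zfp42, and in 15.9% of all. Windows of 1 gene can overlap, as those of Nanog did. The ACAATG of Pou5f1 stood before a start at chr17:35508807 and not before the one at 35506032, which is nearer the start of the gene. The words searched for ESRRB (AAGGTCA, 4.08% of windows), TFCP2L1 (its repeat of CCAG, 2.78%) and ZFP42 (AAGATGGC, 1.56%) were not among the letters of the windows of any member. These are matches of letters, and nothing measured here bears on binding.

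The order of the 9 transcripts was different in 2-cell embryos and in blastocysts, with Pou5f1 first in the former and Zfp42 in the latter. Levels of different genes are compared only per length, in TPM (counts divided by transcript length and scaled to the library). In 2-cell embryos Pou5f1 led with 193 ± 68.4 TPM (SD, n = 55 embryos), followed by Klf4 with 104 ± 53.8 and Sox2 with 65.8 ± 57.3. Zfp42 (40.8 TPM), Klf2 (12.3), Nanog (7.67), Esrrb (7.15) and Tfcp2l1 (5.98) came next, and Tdgf1 was last with 1.26 TPM. Only the steps from Pou5f1 to Klf4 and from Tfcp2l1 to Tdgf1 were larger than the larger SD of the neighbours. In intact blastocysts Zfp42 led with 474 ± 131.3 TPM (n = 31) and was above Tfcp2l1, next at 123.6 ± 44.7 TPM, in 31 of 31 embryos. No other step of the order in intact blastocysts exceeded the SD, from Pou5f1 at 83.2 TPM through Klf4 (50.5), Tdgf1 (44.5), Nanog (36.3), Sox2 (32.1) and Klf2 (22.5) to Esrrb at 12.5. In twins Zfp42 led as well with 503 ± 57.3 TPM (n = 19), and Pou5f1 stood second at 283 ± 63 TPM, ahead of Tfcp2l1 (161) and Tdgf1 (155). Klf4 (68.4 TPM), Nanog (64), Sox2 (59.97), Klf2 (45.6) and Esrrb (17.2) followed, and here the steps from Zfp42 to Pou5f1, from Pou5f1 to Tfcp2l1, from Tdgf1 to Klf4 and from Klf2 to Esrrb exceeded the SD.

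**Figure D1:**
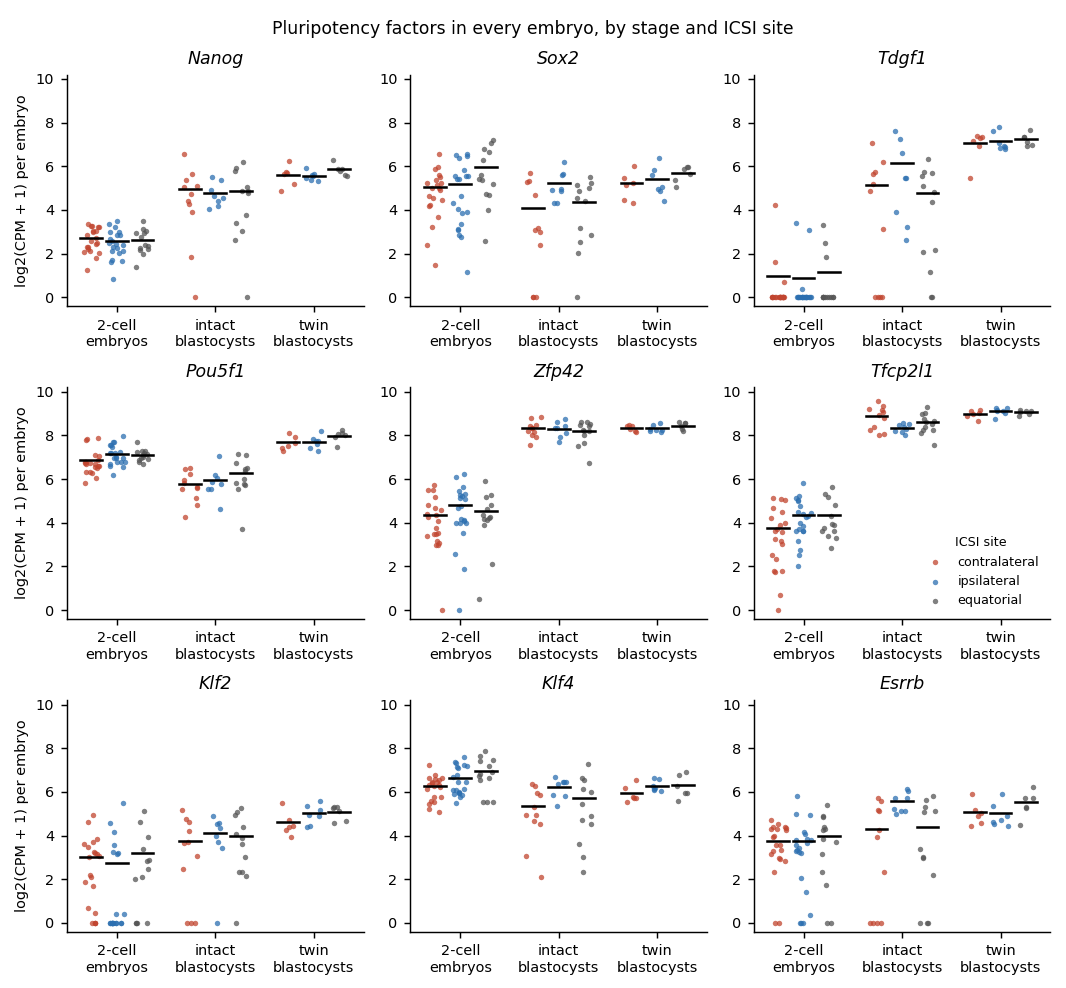
Level of each factor in every embryo, as log2(CPM + 1) on the vertical axis, in 2-cell embryos, intact blastocysts and twin blastocysts (both twins added) on the horizontal axis. Each point is 1 embryo coloured by ICSI site and each bar is log2(mean CPM + 1) of its group. Tfcp2l1 and Zfp42 stand above all 2-cell embryos in both kinds of blastocyst, and the points of intact blastocysts reach 0 for Nanog, Sox2, Klf2, Esrrb and Tdgf1 while those of twins do not.

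From the 2-cell stage to the intact blastocyst, Tfcp2l1, Zfp42, Tdgf1 and Nanog rose and Pou5f1, Sox2 and Klf4 fell relative to all transcripts. The test was the edgeR quasi-likelihood test between the 31 intact blastocysts and the 13 two-cell embryos of the same plate, with Benjamini-Hochberg adjustment over all 10292 genes tested. It called 7 of the 9 members at an adjusted p under 0.05, where 75.6% of all genes were called, 37.9% higher and 37.7% lower, so that being called does not set the members apart. All values of this comparison are CPM within a gene.

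Tfcp2l1, a grainyhead-family factor downstream of LIF, was between 3.10 and 55.5 CPM in the 13 two-cell embryos (median 11.5) and between 189.9 and 770.5 CPM in intact blastocysts (median 368). The difference was 4.04 ± 0.30 on the log2 scale (SE, edgeR adjusted p = 5.80e-17). Zfp42, a zinc-finger marker of the naive state, ranged from 0 to 42.4 CPM (median 16.9) at the 2-cell stage and from 104 to 460.4 CPM (median 321) in intact blastocysts, a difference of 3.66 ± 0.30 (edgeR adjusted p = 1.78e-15). In both genes the stages did not overlap, which held for 8.37% of all genes in the upward direction. Nanog went from a median of 3.39 CPM (0.809 to 8.43) to 25.8 CPM (0 to 94.4), a log2 difference of 2.46 ± 0.48 (edgeR adjusted p = 1.24e-05). Tdgf1 had a median of 0 CPM in 2-cell embryos, with a highest value of 17.9, and a median of 28.6 CPM in intact blastocysts, with values from 0 to 195. The fitted log2 difference was 4.33 ± 0.98 (edgeR adjusted p = 9.65e-05), and its size depends on how the fit treats embryos without a count. For Nanog and Tdgf1 the stages overlapped, because some intact blastocysts had few or no counts.

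Pou5f1 moved the other way. It lay between 109.96 and 249 CPM in the 13 two-cell embryos (median 189.7) and between 12 and 142 CPM in intact blastocysts (median 55.5), a log2 difference of -1.97 ± 0.21 (edgeR adjusted p = 1.06e-11). The size depends on which 2-cell embryos are used, since Pou5f1 averaged 114.1 ± 28.6 CPM in the 42 embryos of the other plate against 187 ± 44.5 CPM in these 13. The fall is that of intact blastocysts. In the 19 twin embryos Pou5f1 averaged 222 ± 47.4 CPM, which is not below the mean of these 13 two-cell embryos. Twins were not tested against 2-cell embryos. Sox2 fell from a median of 45.8 CPM (1.25 to 88.4) to 22.4 CPM (0 to 72.3), by 1.14 ± 0.47 on the log2 scale (edgeR adjusted p = 0.0243). Klf4 fell from 69.4 CPM (35.9 to 166) to 54.6 CPM (3.31 to 154), by 0.82 ± 0.32 (edgeR adjusted p = 0.0201). Both ranges overlapped widely. These falls, too, are those of intact blastocysts. In the 19 twin embryos the medians were 40.6 CPM for Sox2 and 68.4 CPM for Klf4, near those of the 13 two-cell embryos. Klf2 had a median of 0 CPM (0 to 23) at the 2-cell stage and 12 CPM (0 to 37.0) in intact blastocysts, and Esrrb, an orphan nuclear receptor, 12.8 CPM (0 to 29.9) and 32.8 CPM (0 to 70.1). Neither passed the test (log2 difference 1.47 ± 0.78 with edgeR adjusted p = 0.0847 for Klf2, and 0.87 ± 0.66 with 0.225 for Esrrb), though a rank-sum test on TPM called Klf2 (adjusted p = 0.00880).

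Other genes of the pluripotent network were as mixed as the members. Of 40 further genes listed for epiblast and pluripotency, 32 were tested and 27 were called, 14 higher and 13 lower in intact blastocysts, with a median log2 difference of 0.71 against 0.06 over all genes. The calls with the smallest p-values were Tcl1 (-6.68, edgeR adjusted p = 5.67e-21) and Dppa3 (-5.19, 5.11e-15), stored in the oocyte in quantity, and Dppa5a (2.61, 5.95e-21) and Klf5 (3.11, 2.21e-19). Markers of the stages moved with the labels. All 12 trophectoderm markers tested were higher in blastocysts, 13 of 14 primitive endoderm markers were higher and 1 lower, and all 6 oocyte genes were lower.

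Relative to all transcripts, most members were higher in twin than in intact blastocysts. The amount of transcript per blastocyst was not measured. Pou5f1, Tdgf1, Klf2, Sox2, Nanog and Tfcp2l1 were higher in twins, by between 1.26-fold and 3.42-fold, and Klf4, Esrrb and Zfp42 did not pass the test. These 6 of 9 compare with 42.3% of the 9379 genes tested that were called in either direction and 20.4% that were called higher and 21.9% lower (edgeR, ICSI site as a covariate, 19 against 31 embryos).

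Pou5f1 was between 153 and 300.4 CPM in the 19 twin embryos (median 213) and between 12 and 142 CPM in the 31 intact blastocysts (median 55.5). Every twin embryo exceeded every intact one, which 0.288% of all genes did in this direction. The fold was 3.24 (log2 1.70 ± 0.15, edgeR adjusted p = 5.10e-14), and 35 of the 38 single twins were above all intact blastocysts. Tdgf1 lay between 43.5 and 218 CPM in twins (median 137) and between 0 and 195 in intact blastocysts (median 28.6), with all 19 twin embryos above the intact median. Its fold was 3.42 (log2 1.77 ± 0.40, edgeR adjusted p = 0.000337).

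Nanog ranged from 28.5 to 76.3 CPM in twins (median 48.8) and from 0 to 94.4 CPM in intact blastocysts (median 25.8), a fold of 1.63 (log2 0.71 ± 0.26, edgeR adjusted p = 0.0236). Klf2 ranged from 14.3 to 46.3 CPM (median 28.9) against 0 to 37.0 CPM (median 12), a fold of 1.83 (log2 0.87 ± 0.32, edgeR adjusted p = 0.0218). Sox2 ranged from 19 to 82.2 CPM (median 40.6) against 0 to 72.3 CPM (median 22.4), a fold of 1.74 (log2 0.80 ± 0.33, edgeR adjusted p = 0.0417). In these 3 genes the ranges overlapped, with all 19 twin embryos above the intact median for Nanog and Klf2 and 16 of 19 for Sox2. Tfcp2l1 was between 400.3 and 618 CPM in twins (median 548) and between 189.9 and 770.5 CPM in intact blastocysts (median 368), so that the twins lay inside the upper part of the intact range. The fold was 1.26 (log2 0.33 ± 0.11, edgeR adjusted p = 0.0144).

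Zfp42 stood close in both kinds of blastocyst, and Klf4 and Esrrb did not pass the test. Zfp42 had a median of 311 CPM in twins (284 to 390.3) and 321 CPM in intact blastocysts (104 to 460.4), with a log2 difference of 0.01 ± 0.10 (edgeR adjusted p = 0.959). Klf4 had medians of 68.4 and 54.6 CPM (0.34 ± 0.24, adjusted p = 0.260) and Esrrb of 31.5 and 32.8 CPM (0.43 ± 0.37, adjusted p = 0.370). Of the 19 twin embryos, 14 were above the intact median for Klf4, 9 for Esrrb and 9 for Zfp42.

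The calls for Pou5f1, Tdgf1 and Tfcp2l1 were kept under all 9 alternatives. Nanog was not called with twin b of each pair alone (log2 difference 0.55, adjusted p = 0.103), and Klf2 not with twin a alone (0.80, adjusted p = 0.0708). Sox2 was called neither with twin b alone (log2 difference 0.80, adjusted p = 0.0577) nor with intact blastocysts of at least 500000 counts (0.61, adjusted p = 0.114).

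**Figure D2:**
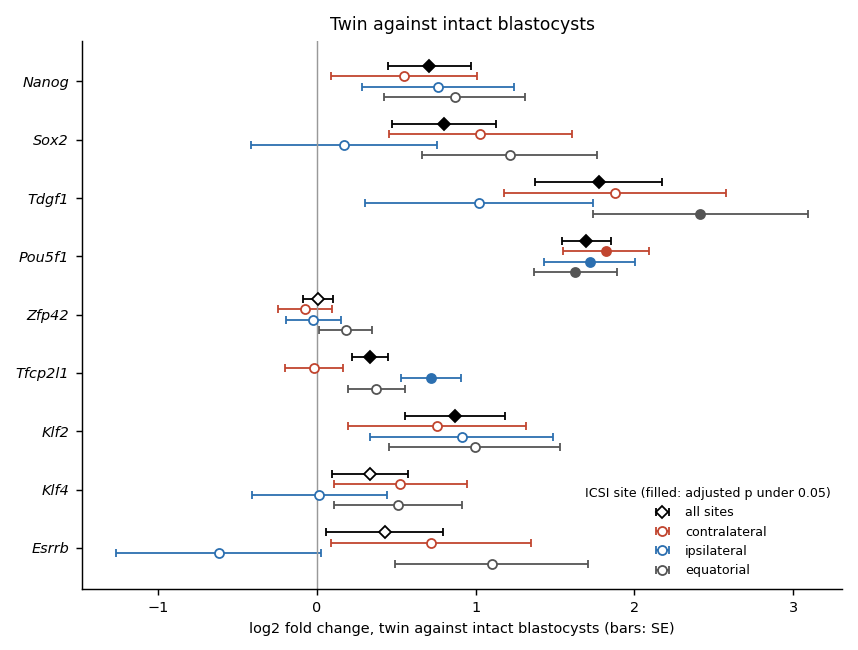
Log2 fold change of each factor between twin and intact blastocysts on the horizontal axis, over all sites (diamonds) and within each ICSI site (circles), with bars for the standard error and filled symbols where the adjusted p was under 0.05. Over all sites Pou5f1 and Tdgf1 lie at 1.70 and 1.77 and Zfp42 at 0.01, and Pou5f1 is filled at all 3 sites.

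Intact blastocysts were spread more widely among themselves than the 38 single twins of 19 embryos, which is given without a test. Total counts were also lower in intact blastocysts (median 705837 against 1093478). The coefficient of variation was 119.5% in intact embryos against 36.5% in single twins for Tdgf1, 75.1% against 37.8% for Nanog, 84.7% against 60.2% for Esrrb, 50.1% against 28.5% for Pou5f1 and 26.5% against 12.9% for Zfp42. For Nanog, Sox2, Klf2, Esrrb and Tdgf1 the low end of the intact range was made of embryos with no count at all. Pou5f1, Klf4, Tfcp2l1 and Zfp42 were counted in all 31 intact blastocysts. At least 1 member was at 0 in 11 of 31 intact blastocysts, 6 contralateral, 4 equatorial and 1 ipsilateral, whereas every member was counted in all 38 single twins. Esrrb was at 0 in 7 of the 31 and Tdgf1 in 6, and both were at 0 in 5 embryos.

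Depth moved with part of this. Of the 11 embryos, 5 had fewer than 500000 counts, and 6 intact blastocysts were that shallow in all. Others were deep. A contralateral blastocyst (906400 counts) had no count of Sox2, Klf2, Esrrb and Tdgf1, an equatorial embryo (974655 counts) none of Sox2, Esrrb and Tdgf1, and another contralateral embryo (1254428 counts) none of Sox2 and Tdgf1. Summed primitive endoderm markers were 1057, 681 and 678 CPM in these 3, where intact blastocysts ranged from 678 to 3260 CPM with a median of 2387. Their summed trophectoderm markers were 6022, 7757 and 6308 CPM, and the intact median was 6041. In the remaining embryos of at least 500000 counts, 1 member each was at 0. This was Esrrb in a contralateral (519164 counts) and an equatorial embryo (828373 counts), and Klf2 in an ipsilateral embryo (573605 counts). Summed primitive endoderm markers were not low in them, at 2387, 2762 and 2793 CPM, and summed trophectoderm markers were 6778, 6238 and 5920 CPM. These embryos were picked for their zeros, so the values describe them and test nothing.

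Markers of the other lineages differed between twins and intact blastocysts as well. Summed trophectoderm markers were 4597 to 6010 CPM in twins (median 5358) and 5121 to 9682 CPM in intact blastocysts (median 6041), and summed primitive endoderm markers 1099 to 2165 CPM (median 1609) and 678 to 3260 CPM (median 2387). The 9 members together came to 1272 to 1839 CPM in twins (median 1424) and 561 to 1545 CPM in intact blastocysts (median 955). Of 12 trophectoderm genes tested, 10 were called, 2 higher and 8 lower in twins (median log2 difference -0.35 against -0.01 over all genes). Among them were Eomes (-1.08), Tfap2c (-1.34) and Elf5 (-1.32), while Cdx2 was higher (1.41). Of 14 primitive endoderm genes 10 were called, 2 higher and 8 lower (median -1.19), and basement membrane genes led (Lama1 -1.25, Lamb1 -1.13, Col4a1 -1.43, Col4a2 -1.42). The list did not move as a whole. Mean levels were higher in twins for Gata6 (293 against 187 CPM in intact blastocysts) and Dab2 (445 against 347 CPM). Those of Sox17 were close (36.5 against 38.4 CPM). Oocyte genes were near 0 in both (median sum 4.09 CPM in twins and 5.61 CPM in intact blastocysts, against 2653 CPM in 2-cell embryos). The part of lineage composition and of depth in the members' differences was not tested beyond the alternatives given. With log2 total count as a covariate and twin a alone, an alternative chosen after the data were seen, Pou5f1, Tdgf1 and Tfcp2l1 (log2 difference 0.62) were still called, and Nanog (log2 difference 0.54, adjusted p = 0.235), Sox2 (0.60, 0.358) and Klf2 (0.38, 0.574) were not.

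The wider pluripotency list leaned the same way. Of its 31 genes tested 21 were called, 14 higher and 7 lower in twins, with a median of 0.42. Over all genes 42.3% were called, 20.4% higher and 21.9% lower. Among listed genes with lower means in twins were Klf5 (725 against 900 CPM in intact blastocysts), Dppa5a (1064 against 1260 CPM) and Sall4 (202 against 279 CPM). The calls with the smallest p-values were all higher in twins. Dppa3, a protein that guards methylation of the maternal genome, was higher by 2.79 ± 0.34 (edgeR adjusted p = 6.71e-09), the paired chromatin proteins Dppa2 and Dppa4 by 1.85 ± 0.19 and 1.83 ± 0.21 (8.76e-12 and 2.64e-10), and the cell cycle factor Mybl2 by 1.63 ± 0.14 (5.47e-15).

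Within each ICSI site the direction was the same for Pou5f1. Its log2 difference between twins and intact blastocysts was 1.82 ± 0.27 after contralateral ICSI (edgeR adjusted p = 1.66e-06), 1.72 after ipsilateral ICSI (1.78e-05) and 1.63 after equatorial ICSI (9.49e-06). It was the 1 member called among contralateral embryos, where 17.8% of 10689 genes were called. Tfcp2l1 (0.72, adjusted p = 0.00709) was the other call among ipsilateral embryos (10.9% of genes) and Tdgf1 (2.42, adjusted p = 0.0125) among equatorial embryos (13.6% of genes). Whether the difference depends on the site was tested as an interaction. edgeR called none of the 9 members and 0 of 10689 genes (246 at an unadjusted p under 0.05, and 0 by DESeq2), and the smallest p among members was 0.0261 for Tfcp2l1 (adjusted p = 1.0).

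Among twins, no member differed between ICSI sites by the test. edgeR called 0 of the 9 members and 0 of 10995 genes (0.0%) in each of the 3 comparisons. Genes at an unadjusted p under 0.05 numbered 728 for contralateral against equatorial, 426 for ipsilateral against equatorial and 754 for contralateral against ipsilateral, and DESeq2 called 9, 1 and 1 genes. Members differed by between -0.54 and 0.09 on the log2 scale, with standard errors from 0.09 to 0.30. Pou5f1 had the smallest p (0.0553, ipsilateral against equatorial, -0.28 ± 0.14). Its values were 178 to 300.4 CPM in the 6 equatorial twin embryos (median 263), 153 to 293 CPM in the 7 ipsilateral ones (median 211) and 156 to 276 CPM in the 6 contralateral ones (median 189). The sites overlapped almost entirely.

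Among intact blastocysts the sites did not separate the members either, and the precision was lower. edgeR called 0 of 9 members and 0 of 9165 genes (0.0%) in each comparison. At an unadjusted p under 0.05 there were 629 genes for contralateral against equatorial, 338 for ipsilateral against equatorial and 522 for contralateral against ipsilateral, and DESeq2 called 1, 0 and 0. The log2 differences of members ran from -1.24 to 1.34, with standard errors from 0.17 to 0.85. Tfcp2l1 had the smallest p (0.00291, adjusted p = 0.822). It was between 259 and 770.5 CPM in 11 contralateral embryos (median 486), between 259 and 381 CPM in 8 ipsilateral embryos (median 326) and between 189.9 and 631 CPM in 12 equatorial embryos (median 377). The log2 difference between contralateral and ipsilateral embryos was 0.67 ± 0.21. Ipsilateral embryos were the tightest group, and both others spread above and around them.

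Esrrb, Sox2 and Klf4 showed the reverse order of means in intact blastocysts without passing the test. Esrrb averaged 46.8 ± 15.1 CPM in ipsilateral embryos (n = 8), 18.7 ± 20.3 in contralateral ones (n = 11) and 19.7 ± 20.7 in equatorial ones (n = 12). Sox2 averaged 36.7 ± 18.4, 16.2 ± 18.3 and 19.9 ± 15.1 CPM in the same order, and Klf4 74.5 ± 21.4, 39.5 ± 26.6 and 51.5 ± 45.6 CPM. The ranges of the sites overlapped for each of these genes. The contralateral and equatorial groups hold 10 of the 11 embryos with a member at 0 and all 6 with fewer than 500000 counts.

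In 2-cell embryos Klf4, a Krüppel-like zinc-finger factor, was lower after contralateral than after equatorial ICSI. It was the 1 call among 8 members tested, where 13.2% of 13141 genes were called and 6.06% were called lower and 7.12% higher. That share is near the one of all genes and does not set the members apart. Tdgf1 was below the filter on low counts. Klf4 lay between 33.3 and 149 CPM in the 21 contralateral embryos (median 77.9), between 45.4 and 234 CPM in the 13 equatorial ones (median 113) and between 44.3 and 192 CPM in the 21 ipsilateral ones (median 87.5). The ranges overlapped. The log2 difference between contralateral and equatorial embryos was -0.69 ± 0.21, which is 1.62-fold lower (edgeR with plate as a covariate, adjusted p = 0.0209). Within plates the means were 78.2 CPM (n = 18) against 130.8 CPM (n = 11) on one and 60.5 CPM (n = 3) against 75.2 CPM (n = 2) on the other. The call was kept under 8 of 9 alternatives, with adjusted p-values from 0.01435 upwards, and lost when total count and number of detected genes were covariates (-0.39, adjusted p = 0.257).

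Pou5f1 and Sox2 pointed the same way without being called. Pou5f1 ranged from 55.8 to 238 CPM in contralateral embryos (median 103) and from 100.8 to 209.8 CPM in equatorial ones (median 138), a log2 difference of -0.31 ± 0.13 (edgeR adjusted p = 0.0980). Sox2 ranged from 1.77 to 93.5 CPM (median 30.9) and from 4.94 to 146 CPM (median 41.7), a difference of -0.99 ± 0.41 (adjusted p = 0.102). Pou5f1 was called on the larger plate alone (adjusted p = 0.0205) and by a rank-sum test (0.0352), and Sox2 when pairs with over 2% mitochondrial counts were left out (0.0434) and when no pair was left out (0.0355). On the larger plate Pou5f1 averaged 97.5 ± 21.3 CPM in contralateral (n = 18) and 132.8 ± 18.9 CPM in equatorial embryos (n = 11), whereas on the smaller plate the order was the reverse, 228.9 ± 10.8 CPM (n = 3) and 165.8 ± 62.3 CPM (n = 2). Sox2 averaged 29.7 ± 20.8 and 64.6 ± 50.3 CPM on the larger plate and 45.1 ± 23.7 and 44.2 ± 3.51 CPM on the smaller one. The other 5 members tested, Nanog, Klf2, Esrrb, Tfcp2l1 and Zfp42, had log2 differences from -0.63 to 0.04 and adjusted p-values of at least 0.371. Between ipsilateral and equatorial embryos edgeR called none of the 8 members (6.65% of genes were called), and between contralateral and ipsilateral embryos none of the 8 and 0 of 13141 genes (555 at an unadjusted p under 0.05, and 0 by DESeq2).

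In the wider pluripotency list 8 of 30 genes tested were called between contralateral and equatorial 2-cell embryos, 2 higher and 6 lower. The 4 with the smallest p-values were Mybl2 (-0.63), Stat3 (-0.87), the transducer of LIF, Trim28 (-0.63), a corepressor, and Sall4 (-0.62), a zinc-finger partner of Pou5f1. Between ipsilateral and equatorial embryos 4 were called, Mybl2 (-0.47), Stat3 (-0.64) and Sall4 (-0.64) lower and Dppa2 (0.58) higher. These comparisons share the equatorial embryos. Over all genes, 874 were called between ipsilateral and equatorial embryos, 451 higher and 423 lower. With total count and number of detected genes as covariates, 61 were called, 60 higher and 1 lower. At most 1 of the lower calls named for that comparison can therefore have been kept. Of the other lists, 0 of 9 trophectoderm genes, 0 of 2 cumulus genes, 1 of 10 primitive endoderm genes (Col4a2, 3.78, adjusted p = 0.0266) and 1 of 9 oocyte genes (Gdf9, -0.31, adjusted p = 0.0137) tested were called between contralateral and equatorial embryos. Col4a2 was near the floor, with a mean of 2.60 ± 4.33 CPM (SD) over all 2-cell embryos, so its difference rests on few counts.

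For no member did the test show twins of one pair to be more alike than twins of different pairs. The pair was fitted as a term in edgeR over the 38 single twins, and a call means that pairs differed from each other by more than twins within pairs. None of the 9 members was called (89 of 9773 genes, 0.911%, were called, and 1086 had an unadjusted p under 0.05, and limma called 120). Tdgf1 came nearest (p = 0.0116, adjusted p = 0.267), and next Pou5f1 (p = 0.0701). Without the filter on low counts edgeR called both (adjusted p = 8.35e-07 for Tdgf1 and 0.0224 for Pou5f1), among 927 genes of 21113. The intraclass correlation of log2(CPM + 1) is 1 for identical twins and about 0 for twins as unlike as strangers. It was 0.34 for Tdgf1, 0.34 for Zfp42 and 0.21 for Pou5f1, against a median of 0.0827 over all genes. Genes of similar level to these 3 had medians of 0.12, 0.20 and 0.15. For the other 6 members the correlation was between -0.33 and 0.04, and medians of genes of similar level were 0.0668 to 0.249.

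The size of the gap within a pair followed the gene. Zfp42 and Pou5f1 differed by less than 2-fold in all 19 pairs, and their widest pairs were 254 against 343 CPM and 224 against 113.9 CPM. Tfcp2l1 passed 2-fold in 1 pair, with 264 against 608 CPM in a contralateral pair. Klf4 and Tdgf1 passed it in 3 pairs each and Nanog in 4, and the widest were 28.5 against 110.3 CPM for Klf4 in an ipsilateral pair, 241 against 56.6 CPM for Tdgf1 in an equatorial pair, and 78.8 against 18.3 CPM for Nanog in the ipsilateral pair that was also the widest for Pou5f1. Sox2 and Klf2 passed it in 9 pairs each and Esrrb in 12. The contralateral pair that was widest for Tfcp2l1 was also widest for Sox2, with 4.50 against 41.2 CPM, and an ipsilateral pair was widest for Esrrb, with 41.2 against 4.82 CPM. Low members tended to vary more within pairs. The mean gap of each member is therefore set beside the median of the mean gaps of genes of similar level. The mean log2 gap was 1.34 for Esrrb against 0.717 for genes of its level, and 0.997 against 0.655 for Sox2. It was 0.732 against 0.606 for Nanog, 0.9997 against 0.813 for Klf2 and 0.619 against 0.499 for Klf4. Tdgf1 (0.534 against 0.364), Pou5f1 (0.397 against 0.287) and Tfcp2l1 (0.276 against 0.183) were also above their level. Only Zfp42 lay below, at 0.177 against 0.231. These gaps were not tested.

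**Figure D3:**
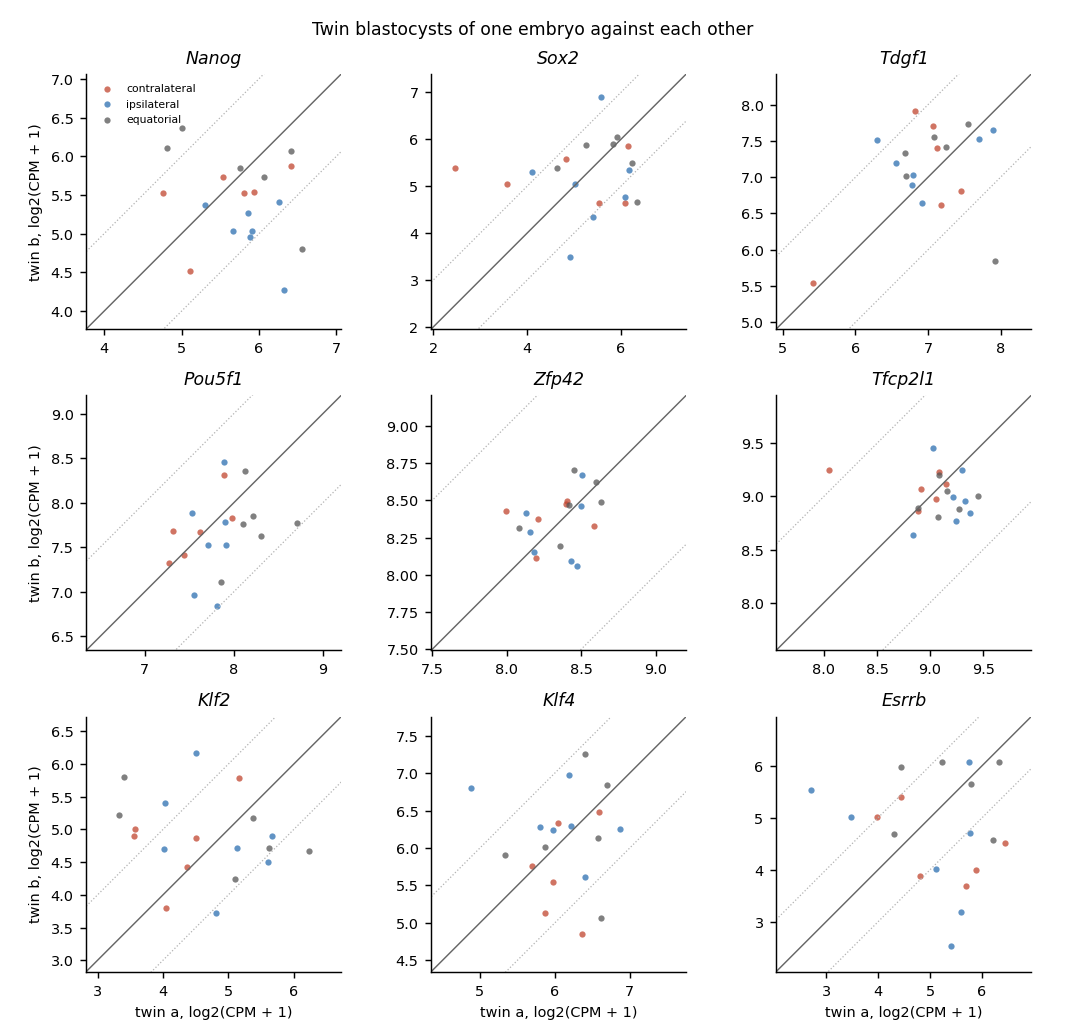
Level of each factor in the 19 pairs of twin blastocysts, as log2(CPM + 1), with twin a on the horizontal and twin b on the vertical axis, colours for the ICSI site and a scale of its own for each gene. The solid line is equality and the dotted lines are 2-fold, which 0 pairs pass for Zfp42 and Pou5f1 and 12 pass for Esrrb.

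Sister blastomeres of 2-cell embryos were compared in the same way over 110 single cells. edgeR called none of the 9 members for pairs, where 1161 of 16322 genes (7.11%) were called and 2909 had an unadjusted p under 0.05. Klf2 had the smallest p (0.00926, adjusted p = 0.0999), then Klf4 (0.0236) and Sox2 (0.0382). limma on log2(CPM + 1) called Sox2 (adjusted p = 0.0337) and Klf2 (0.0295), among 2329 genes, and edgeR without the filter on low counts called Sox2, Klf2 and Klf4 among 4195 genes of 24964. The intraclass correlations were 0.34 for Klf2, 0.29 for Sox2, 0.24 for Klf4, 0.20 for Zfp42, 0.19 for Esrrb, 0.05 for Nanog, -0.01 for Pou5f1 and -0.22 for Tfcp2l1, against a median of 0.114 over all genes. Genes of similar level had medians, in the same order, of 0.0798, 0.113, 0.190, 0.0977, 0.0862, 0.0776, 0.226 and 0.0931.

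Detection separated the members into those counted in every cell and those counted in some. Pou5f1 and Klf4 were counted in all 110 blastomeres, Nanog in all but 3, Sox2 in 104, Zfp42 in 97, Tfcp2l1 in 88, Esrrb in 80, Klf2 in 52 and Tdgf1 in 11. In 20 of 55 pairs only 1 sister had a count of Tfcp2l1, and the same held for Klf2 in 18 pairs, Esrrb in 16, Zfp42 in 9, Tdgf1 in 7, Sox2 in 6 and Nanog in 3. No sister had a count of Tdgf1 in 46 pairs. The widest gaps went well past the level of a few counts. Tfcp2l1 was at 0 in 1 sister and at 110.2 CPM in the other in an ipsilateral embryo, Esrrb at 0 and 53.3 CPM, Sox2 at 0 and 49.5 CPM, and Klf4 at 161 and 4.80 CPM in 3 other ipsilateral embryos. The widest pair of Zfp42 was equatorial, with 0 and 53.6 CPM. Those of Nanog (19.2 and 1.11 CPM) and Pou5f1 (31.7 and 121.8 CPM) were contralateral, and that of Klf2 (45.4 and 0.677 CPM) was ipsilateral. Without molecular identifiers, a few captured molecules amplified unequally and a true difference between sisters cannot be told apart in a single pair.

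**Figure D4:**
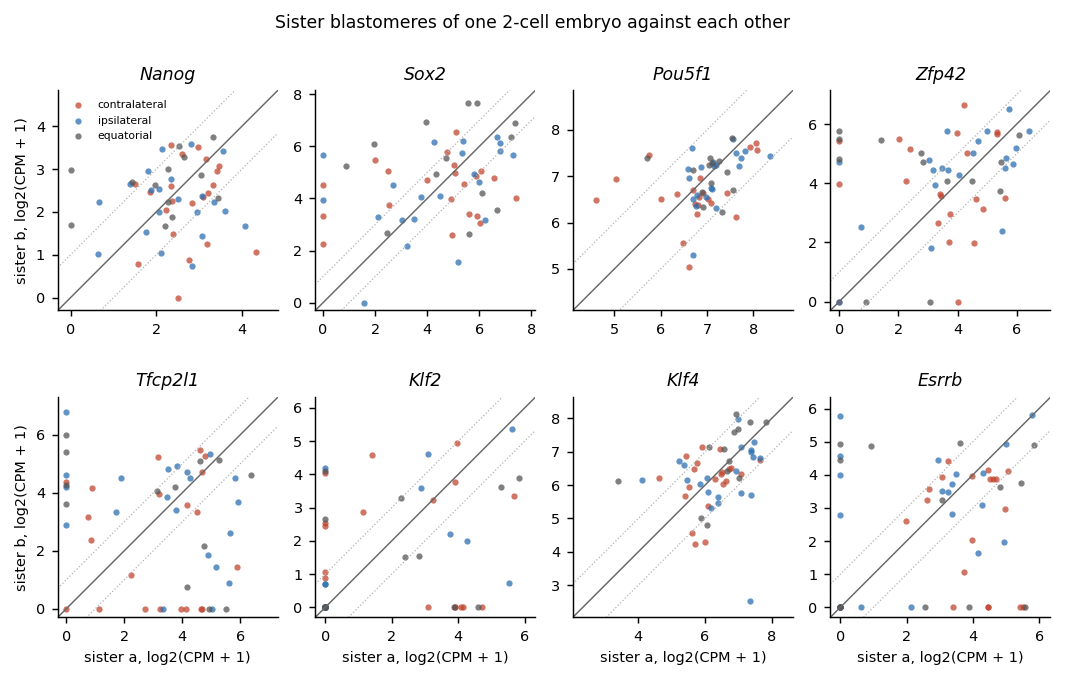
Level of 8 factors (Tdgf1 is not plotted) in the sister blastomeres of 55 two-cell embryos, as log2(CPM + 1), with sister a on the horizontal and sister b on the vertical axis and colours for the ICSI site. The solid line is equality and the dotted lines are 2-fold. Points at 0 on 1 axis are pairs in which 1 sister had no count (20 pairs for Tfcp2l1), and points at 0 on both axes are pairs with no count in either sister (20 pairs for Klf2).

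Among blastocysts most pairs of members were positively correlated from embryo to embryo, Tfcp2l1 being the exception. After the means of the 6 groups of kind and site were subtracted, Spearman's rho over 50 embryos was positive for 31 of the 36 pairs of members. The other 5 all held Tfcp2l1, with Nanog, Sox2, Klf2, Esrrb or Tdgf1. The share of positive pairs among other genes was not computed. The correlation had a median of 0.36 and ran from -0.35 (Nanog with Tfcp2l1) to 0.78 (Esrrb with Tdgf1). These correlations describe embryos that share a plate and differ in depth, and the members' own correlation with total count ran from -0.19 for Tfcp2l1 to 0.37 for Klf2.

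The genes most like each member were taken from 9258 genes with a mean of at least 10 CPM, the first 2 for each. Tdgf1 had the closest companions, the extracellular matrix protein Fn1 (rho = 0.84) and the junctional adhesion molecule Jam2 (0.82). Esrrb went with Tdgf1 (0.78) and B4galt6 (0.76), and Klf2 with Cdpf1 (0.78) and Sox2 (0.68). Sox2 went with Etv5 (0.68), an ETS factor of the FGF pathway, and Tubb3 (0.68), Klf4 with Glud1 (0.72) and Tcof1 (0.70), and Nanog with Ankrd49 (0.71) and Gcsh (0.70). Zfp42 (Gm45871 0.69, Fancm 0.68), Pou5f1 (Dusp4 0.63, Fars2 0.62) and Tfcp2l1 (Cdk11b 0.56, Fam83g 0.56) had less similar companions. No test was made of these likenesses, which are the highest of many.

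**Figure D5:**
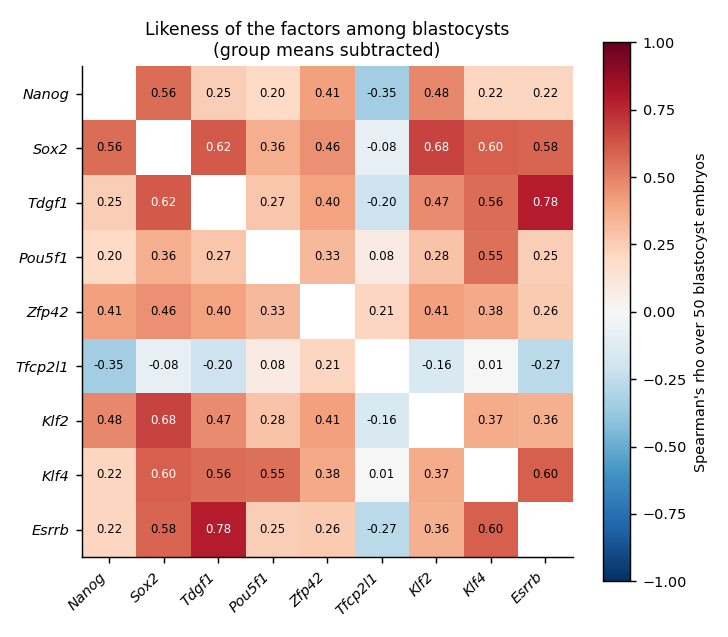
Spearman's rho between each pair of factors over 50 blastocyst embryos after subtraction of group means and shown as a number and a colour. Esrrb and Tdgf1 are the most alike pair at 0.78, and Nanog and Tfcp2l1 the least at -0.35.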

How the data were processed

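Blastomeres and blastocysts were sequenced as SMART-Seq libraries. Per the labels and the study's methods, reads of 100 bases (first mates on the paired plate) were trimmed with Trimmomatic (039), checked with FastQC 0.12.1 and aligned with STAR 2.7.10b without strand to GRCm38 with GENCODE M23, and the authors deposited whole-number counts per gene.

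Pairs were kept where both blastomeres had at least 9500 detected genes (55 of 62), and blastocysts at 4000. The counts of a pair were added. CPM divides by total count, and TPM by exonic length (GENCODE M21). Comparisons used edgeR 4.0.16 (filterByExpr, TMM, quasi-likelihood, R 4.3.3) with Benjamini-Hochberg adjustment over all genes tested and a threshold of 0.05. Standard errors of edgeR log2 differences were not taken from the fit. They are the absolute log2 difference divided by the square root of the F statistic. Covariates were plate for 2-cell sites and ICSI site for twin against intact. Alternatives used DESeq2 1.42.0, limma 3.58.1, permutation rank-sum tests on TPM, other filters and subsets. The main edgeR fits, the rank-sum test and the intraclass correlation were tried on simulated data. The DESeq2, limma and other edgeR alternatives were not. Named genes were the 9 members, and from each marker list up to 4 called genes with the smallest p-values. The members and lists were chosen with earlier results of these data known. Promoter windows are from RefSeq. Nothing says which embryos share a female or a session, so p-values measure the spread between these embryos only.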

Additional observations from a re-analysis of the deposited data

Results flagged for a closer look

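In 36 sets of 1 member and 1 group of 4 to 10 embryos, the highest or lowest embryo was compared with the rest by its gap to the nearest embryo as a share of the range (Dixon's 95% critical value), and 3 embryos stood apart. Chance alone gives about 1 such set in 20. In the 8 intact ipsilateral blastocysts, 1 embryo had 131.04 CPM of Pou5f1 and the other 7 lay between 23.9 and 71.5 CPM. In the 6 contralateral twin embryos, 1 embryo had 43.4 CPM of Klf2, with the others between 14.3 and 25.0 CPM. In the same group, another embryo had 43.5 CPM of Tdgf1 and the others 121.1 to 165 CPM. No member's twin against intact difference was called as dependent on the ICSI site.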

How the results depend on the processing

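Of 81 counts of called members, 72 stayed within 1.5 times the reported count. Between contralateral and equatorial 2-cell embryos the count of 1 became 2 on plate 1 alone, with the mitochondrial limit, with all pairs and by the rank-sum test, and 0 with total count and detected genes as covariates. For twin against intact blastocysts 6 became 3 with twin a alone and depth as a covariate. For agreement within pairs, 0 became 2 in twins and 3 in sisters without the filter on low counts, and 2 in sisters by limma. Of 702 values of single members, 26 changed sign, and none of these was called either way.

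The changed log2 values were as follows. With intact blastocysts of at least 500000 counts, contralateral against equatorial gave 0.0764 for Sox2 and 0.0813 for Klf2, ipsilateral against equatorial -0.126 for Klf2 and -0.0151 for Zfp42, and contralateral against ipsilateral 0.0692 for Pou5f1 and 0.208 for Klf2. Contralateral against equatorial 2-cell embryos gave -0.0576 (mitochondrial limit) and -0.0236 (all pairs) for Nanog, and 0.130 (all pairs) for Klf2. Ipsilateral against equatorial 2-cell embryos gave 0.0255 for Pou5f1 without a plate term, 0.0812 for Nanog and 0.0991 for Tfcp2l1 on plate 1, 0.0798 for Tfcp2l1 with all pairs, and 0.0301 for Nanog, 0.0848 for Klf4 and 0.196 for Tfcp2l1 with both covariates. Contralateral against ipsilateral 2-cell embryos gave -0.263 (plate 1), -0.149 (mitochondrial limit) and -0.138 (all pairs) for Esrrb, -0.274 (mitochondrial limit) for Klf2 and 0.0116 (all pairs) for Sox2. In twins, contralateral against ipsilateral gave 0.00556 for Pou5f1 without the filter and -0.00805 for Zfp42 by ranks. Zfp42 in twin against intact blastocysts gave -0.00922 (twin a), -0.0444 (at least 500000 counts) and -0.0555 (twin a with depth). The cause was not tested.

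Without the filter on low counts, counts over all genes went from 1733 to 3930, 874 to 2603 and 0 to 1577 between sites in 2-cell embryos, 3967 to 6385 for twin against intact, 7778 to 14904 for the stages, 89 to 927 in twin pairs, 1161 to 4195 in sister pairs, and 0 to 1 for ipsilateral against equatorial twins. Other moved counts were 1104 with the mitochondrial limit for contralateral against equatorial 2-cell embryos, 61 with both covariates and 1547 by ranks for ipsilateral against equatorial ones, 2105 for twin against intact with twin a alone and depth as a covariate (3505 with twin a alone), 330 for sister pairs with all pairs, and 2329 by limma. No paired analysis was possible because embryo numbers are unique to 1 group. In the 6 intact blastocysts under 500000 counts a member listed at 0 allows at least 6.85 CPM.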

Other observations

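Genes outside the 9 members that were called for agreement within pairs came from 3 marker lists. In twin blastocysts 2 of 13 primitive endoderm genes tested were called, Sparc (edgeR adjusted p = 0.0150) and Lamb1 (0.0249), both of the basement membrane, and none of the 12 trophectoderm genes and none of the 33 other pluripotency genes. In sister blastomeres 7 of 34 other pluripotency genes were called, led by Dppa3 (edgeR adjusted p = 0.00735), Tcl1 (0.00748), Tbx3 (0.0107) and Klf5 (0.0128), and 2 of 9 oocyte genes, the growth factor Bmp15 (1.87e-05) and the oocyte-secreted Oosp1 (0.00174). Of all genes 0.911% were called in twins and 7.11% in sisters.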
